A study of Mus musculus with 2 samples.

Results

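The dual-specificity MAP kinase phosphatases described here were Dusp1, Dusp2, Dusp4, Dusp5, Dusp6, Dusp8, Dusp10 and Dusp16, 8 of 21887 protein-coding mouse genes in RefSeq. Open chromatin at these genes was read from ATAC-seq peak lists of bone marrow-derived macrophages (BMDMs), the macrophages that grow out of bone marrow in the presence of the growth factor M-CSF. A peak counted for a gene when that gene had the nearest protein-coding gene end to the peak's summit, within 100 kb. By this rule 32 of 37725 peaks of the R848 list and 29 of 77060 peaks of the untreated list belonged to the 8 genes.

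The R848 group was 1 library of wild-type (WT) BMDMs stimulated with R848 at 100 ng/ml for 2 h. The untreated group was 1 library of WT BMDMs without R848, at 0 h. Cells of both groups had been grown with 20 ng/ml recombinant M-CSF, and the labels give neither the age nor the strain of the mice. R848 is a synthetic agonist of the endosomal receptor TLR7 in mouse cells. With a single library per group there was no replicate error and no test across samples, so a peak present in 1 list alone is described as such and not as a tested change.

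Toll-like receptors signal through kinase cascades that end in the MAP kinases ERK, p38 and JNK, which are active when both a threonine and a tyrosine of their activation loop carry phosphate. Dual-specificity MAP kinase phosphatases remove both phosphates and so switch the kinases off. Many of their genes are themselves induced by MAP kinase signalling, which makes them feedback brakes. In macrophages Dusp1 is the best known of them, as a brake on p38 and JNK and on cytokine production. Dusp1, Dusp2, Dusp4 and Dusp5 encode nuclear enzymes, Dusp6 encodes a cytoplasmic enzyme that acts on ERK, and Dusp8, Dusp10 and Dusp16 encode enzymes that prefer p38 and JNK.

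The 250 bases before the start of 5 of the genes are shown because the starts of Dusp5, Dusp8 and Dusp16 lay under an R848 peak with no untreated counterpart, while Dusp1 and Dusp6 had a peak there in both lists. Sequences are from the RefSeq promoter table (build GRCm38.p6), which held 7 of the 8 genes, and are written 5′ to 3′ on the strand of the gene. Capitals mark matches, on either strand, to an NF-kB motif (3 G, 2 of any base, 2 T, 1 of any base, 2 C), an AP-1 motif (TGANTCA), the cAMP response element or CRE (TGACGTCA), its shorter core (TGACGT), an ETS and PU.1 motif (GAGGAAGT), a C/EBP motif (TTGCNNCAA), an interferon response motif (a pair of GAAA with 2 bases between) and the serum response element. Every CRE match holds the shorter core on both strands.
Dusp5 (chr19:53528895-53529144, plus strand): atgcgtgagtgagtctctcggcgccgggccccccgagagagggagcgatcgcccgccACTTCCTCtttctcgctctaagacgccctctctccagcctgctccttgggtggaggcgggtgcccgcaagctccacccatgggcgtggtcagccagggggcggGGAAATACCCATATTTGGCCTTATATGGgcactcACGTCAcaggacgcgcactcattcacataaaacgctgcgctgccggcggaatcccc
Dusp8 (chr7:142095285-142095534, minus strand): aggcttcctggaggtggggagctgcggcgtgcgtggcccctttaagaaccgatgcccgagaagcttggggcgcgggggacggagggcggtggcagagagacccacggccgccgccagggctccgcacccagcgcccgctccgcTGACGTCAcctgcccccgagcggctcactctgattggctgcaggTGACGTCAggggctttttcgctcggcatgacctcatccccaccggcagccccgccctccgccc
Dusp16 (chr6:134792629-134792878, minus strand): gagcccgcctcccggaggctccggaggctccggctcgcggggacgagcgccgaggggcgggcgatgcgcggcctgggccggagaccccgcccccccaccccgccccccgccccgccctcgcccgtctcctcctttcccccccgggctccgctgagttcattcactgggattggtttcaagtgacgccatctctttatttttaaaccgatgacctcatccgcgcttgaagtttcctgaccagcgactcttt
Dusp1 (chr17:26508473-26508722, minus strand): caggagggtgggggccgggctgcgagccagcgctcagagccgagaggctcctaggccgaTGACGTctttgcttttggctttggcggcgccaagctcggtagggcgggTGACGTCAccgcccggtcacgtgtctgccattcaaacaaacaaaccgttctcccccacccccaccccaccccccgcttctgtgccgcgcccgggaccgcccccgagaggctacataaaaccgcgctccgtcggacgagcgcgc
Dusp6 (chr10:99262981-99263230, plus strand): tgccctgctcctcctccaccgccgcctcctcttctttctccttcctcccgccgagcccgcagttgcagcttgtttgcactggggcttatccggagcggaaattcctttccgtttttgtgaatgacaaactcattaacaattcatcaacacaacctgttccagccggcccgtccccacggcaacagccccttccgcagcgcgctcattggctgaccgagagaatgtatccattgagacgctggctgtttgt

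The Dusp5 run in capitals starting with GGAAATACCC is an NF-kB match on the opposite strand followed by a pair of serum response elements, CCATATTTGG and CCTTATATGG. The NF-kB match and the upstream serum response element overlap. The downstream serum response element was centred 1 bp from the R848 summit, the upstream one 11 bp from it and the NF-kB match 19 bp from it. The shorter CRE core of Dusp5 lay 13 bp from the same summit, and an ETS and PU.1 match lay 123 bp away. Dusp8 had CRE matches centred 26 and 70 bp from its R848 summit. Dusp1 had 1 CRE match, 294 bp from its R848 summit, and a separate core farther from the start. In Dusp6 and Dusp16 none of the 8 marked motifs was found.

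Among all 21263 promoter windows of 300 bases (250 before to 50 after the start) of protein-coding genes, 1.52% held a serum response element, 4.98% the NF-kB motif, 2.23% a CRE, 8.49% its shorter core and 3.13% the ETS and PU.1 motif. Of the 7 phosphatase windows, 1 held a serum response element, 1 the NF-kB motif, 2 a CRE, 3 the shorter core and 1 the ETS and PU.1 motif. AP-1, C/EBP and interferon response motifs, found in 6.99%, 1.79% and 3.35% of all windows, matched in none of the 7. A looser NF-kB pattern (3 G, 5 of any base, 2 C) matched in 5 of the 7 but also in 57.0% of all windows. A match describes letters and does not show that a factor was bound.

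The lists differ in length and depth, which bears on every count that follows. The fold enrichment is the authors' value for a peak over its own background and ranks peaks within its list. The number of tags at a summit was solved from the deposited fold and p of each peak. The background of most of the genome came to 1.36 tags in R848 cells and 0.968 tags in untreated cells. The smallest called peak held 5 tags in the R848 list and 4 tags in the untreated list, so a site without a peak was not detectable at this depth and was not shown to be closed. Of all peaks, 48.2% in the R848 list and 36.5% in the untreated list had a q above 0.05. Of 9 macrophage markers, 9 had a peak in the R848 list and 9 in the untreated list, and of 5 T cell markers 0 had one in the R848 list and 1 in the untreated list. Markers of B cells had a peak at 4 of 5 genes in the R848 list and 2 of 5 in the untreated list. Stromal and endothelial markers had one at 5 of 5 genes in the R848 list and 4 of 5 in the untreated list, and neutrophil markers at 3 of 5 genes in each list. Over all protein-coding genes the shares were 63.1% in the R848 list and 69.5% in the untreated list. A peak assigned to a marker therefore says little about cell identity. No promoter window of a T cell, B cell or stromal marker lay under a peak in either list (0 of 4, 0 of 3 and 0 of 2 windows in the table). Macrophage markers had a promoter peak at 3 of 6 genes in the R848 list and 2 of 6 in the untreated list, and neutrophil markers at 2 of 5 genes in each list, S100a8 and S100a9. The shares over all genes in the promoter table were 37.1% and 27.2%, so the macrophage counts were not far from that background.

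All 7 genes in the promoter table had an R848 peak over the promoter window, and 4 of them had an untreated peak there. Over the 17492 protein-coding genes in that table, 37.1% had an R848 peak over a promoter window and 27.2% an untreated peak. Dusp5, Dusp8 and Dusp16 had an R848 peak and no untreated peak over the window, and no phosphatase gene had the reverse. An R848 peak without an untreated peak lay at 12.4% of all genes, and an untreated peak without an R848 peak at 2.55%. Of the 6487 genes with an R848 promoter peak, 33.4% lacked an untreated one, so 3 of 7 is not far from that background. Dusp4 had no entry in the promoter table, and its peak pair within 1 kb of a gene end is given below.

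**Figure D1:**
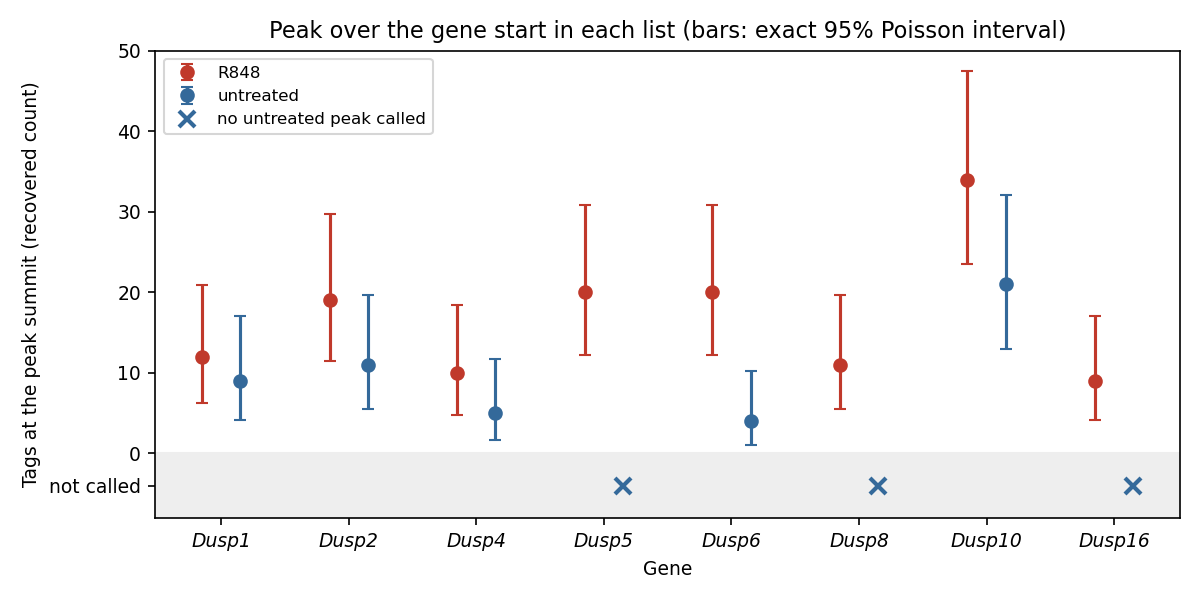
Tags at the summit (vertical axis, recovered count) of the peak over the start of each gene, in the R848 library (red, left) and the untreated library (blue, right), with exact 95% Poisson intervals that cover counting error only; for Dusp4 the peak within 1 kb of a gene end is drawn. Crosses in the grey strip mark the 3 genes with no untreated peak called, Dusp5, Dusp8 and Dusp16; the 8 R848 peaks held 9 to 34 tags.

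Among the nuclear phosphatases, Dusp5, which inactivates ERK, was the single gene with an R848 start peak and no untreated counterpart. The R848 peak (chr19:53528866-53529276) had its summit 67 bp before the start, with 20 tags (exact 95% Poisson interval 12.2 to 30.9), a fold of 6.40 and a −log10 q of 9.43. The untreated list held no peak there, and its nearest peak began 10289 bp away, inside the gene. Of the 1506 R848 peaks over a promoter window with 20 or more tags, a bound taken from Dusp5 itself, 49 (3.25%) had no untreated overlap. Dusp5 lay at the lower edge of this range, which also holds all stronger peaks. The share is therefore not that of peaks of the same strength as Dusp5. By fold, the Dusp5 start peak exceeded 70.0% of the R848 peaks within 1 kb of a gene end.

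Dusp5 had 3 further R848-only peaks, each weaker than the one at the start. Their summits lay 4040 bp before the start (7 tags, fold 2.42), inside the gene 9918 bp after the start (6 tags, fold 2.97) and 24255 bp past the nearer gene end (8 tags, fold 3.81). The peak inside the gene was 454 bp from an untreated peak. A single Dusp5 peak was present in both lists, inside the gene near its far end, with 6 tags in the R848 list and 7 tags in the untreated list. The 2 untreated-only peaks lay 39294 and 64370 bp before the start, with 5 and 7 tags.

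Dusp1, the p38 and JNK phosphatase, had a broad peak over its start in both lists. In the R848 list it spanned chr17:26508056-26508777 with 12 tags (6.20 to 21.0), fold 4.68, and in the untreated list chr17:26508077-26508834 with 9 tags (4.12 to 17.1) and a fold of 4.50. The intervals overlapped. Here and at the genes below, overlap of separate intervals is not a test, and a difference was not tested. The ratio of R848 to untreated tags was 1.33, against a median of 1.83 over shared promoter peaks. Away from its start Dusp1 had peaks found in 1 list alone, as were 69.0% of all R848 and 84.7% of all untreated peaks. The 3 R848-only peaks all lay upstream, 6350, 8371 and 25424 bp before the start, with 8, 9 and 9 tags and folds of 3.46, 3.79 and 3.31. Their −log10 q values were 1.43, 2.02 and 1.39.

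The untreated-only peaks of Dusp1 lay 875 bp before the start, with 7 tags, and 2495 bp past the other end of the gene, with 8 tags. The one before the start was 487 bp from the R848 start peak. A peak 7832 bp past the other end was shared, with 9 tags in the R848 list and 7 tags in the untreated list. None of the Dusp1 peaks in either list reached a −log10 q of 5.

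Dusp2 encodes a phosphatase of activated lymphoid and myeloid cells. Its start lay under a shared peak, with 19 tags (11.4 to 29.7), a fold of 6.41 and a −log10 q of 9.06 in the R848 list, and 11 tags (5.49 to 19.7), a fold of 5.50 and a −log10 q of 4.69 in the untreated list. The intervals overlapped, and the ratio of R848 to untreated tags, 1.73, was below the median of 1.83 over shared promoter peaks. The only other Dusp2 peak was R848-only, 2719 bp before the start, with 9 tags and a fold of 3.21. Dusp2 was the single phosphatase gene without an untreated-only peak, and the next gene, Astl, had an end 2541 bp from the R848 start summit.

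Dusp4, which encodes a further nuclear phosphatase, had a shared peak whose R848 summit lay 443 bp outside its lower-coordinate end. It held 10 tags (4.80 to 18.4) at fold 4.51 in the R848 list, and 5 tags (1.62 to 11.7) at fold 3.05 in the untreated list. These intervals overlapped, and the ratio of tags was 2.0, against the median of 1.83 over shared promoter peaks. Within the lists, the fold of this peak exceeded 76.2% of R848 peaks and 19.3% of untreated peaks, ranks that do not show a change because the lists differ in length. The R848-only peaks of Dusp4 lay 46801 and 48392 bp outside the gene, with 7 tags each. Its untreated-only peaks lay 4395, 84894 and 93752 bp outside the gene, with 4, 6 and 5 tags.

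Dusp6, the cytoplasmic ERK phosphatase, had the most peaks of the 8 genes, 7 in the R848 list and 10 in the untreated list, and 5 in each were shared. At its start the R848 peak (chr10:99262891-99263339) held 20 tags (12.2 to 30.9) with a fold of 6.95 and a −log10 q of 10.4. The untreated peak (chr10:99263061-99263260) held 4 tags (1.09 to 10.2) with a fold of 2.54 and a −log10 q of 0.321. These intervals did not overlap on raw tags, but they did once the R848 tags were scaled to the untreated library. Such overlap does not show that the tags were equal, and a difference was not tested. Divided by the ratio of the background tags given above, the R848 count was 14.2 tags (8.70 to 22.0), and divided by the median ratio of shared promoter peaks (1.83) it was 10.9 tags (6.68 to 16.9). Among 3990 shared R848 peaks over promoter windows the median ratio of R848 to untreated tags was 1.83, and 92.3% had more tags in the R848 list. At least 5 times the untreated tags, a bound taken from Dusp6, was reached by 18 of them (0.451%). The Dusp6 untreated count of 4 tags was the smallest of any called untreated peak. A shared pair could thus reach this bound only with 20 or more R848 tags. Sites with no called untreated peak were not among the pairs, so the share does not show how unusual Dusp6 was.

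Past the end of Dusp6, peaks with R848 summits 1344 and 3136 bp from the gene were shared. The nearer held 10 tags in the R848 list and 7 tags in the untreated list, and the farther held 12 tags in the R848 list and 6 tags in the untreated list. A distal group 73779 to 77247 bp past the gene was also present in both lists. Its shared peaks held 7 and 8 tags in the R848 list and 9 and 11 tags in the untreated list, the only shared Dusp6 peaks with more tags in the untreated list. The local background there was 1.58 and 1.62 tags in the R848 list and 2.68 and 2.52 tags in the untreated list. The folds were 3.10 and 3.44 in the R848 list and 2.72 and 3.41 in the untreated list. As folds rank peaks within a list, they do not show in which list these peaks were stronger. The 2 R848-only peaks of Dusp6 held 6 and 8 tags, and the second lay 382 bp from an untreated peak of this distal group.

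The 5 untreated-only peaks of Dusp6 held 4 to 10 tags. The strongest lay 60836 bp past the gene and had a fold of 5.59, which exceeded 93.0% of the untreated peaks. The next gene, Poc1b, had an end 130251 bp from that summit.

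Dusp8, a JNK and p38 phosphatase, had 3 R848 peaks and 1 untreated peak, and none of them was shared. The same held for 69.0% of all R848 peaks and 84.7% of all untreated peaks. The R848 peak over the start (chr7:142095070-142095803), whose summit lay 33 bp before it, held 11 tags (5.49 to 19.7) with a fold of 3.97 and a −log10 q of 2.68. The others lay 2718 bp before the start and inside the gene, with 8 and 7 tags. The untreated peak lay 5917 bp past the gene with 5 tags. R848 promoter peaks of 9 to 11 tags, the range of Dusp8 and Dusp16, lacked an untreated overlap in 51.6% of 1298 cases, so their absence from the untreated list was common at this strength.

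Dusp10, which encodes a phosphatase for p38 and JNK, had the strongest start peak of the 8 genes in both lists. It held 34 tags (23.6 to 47.5), a fold of 9.78 and a −log10 q of 22.4 in the R848 list, and 21 tags (13.0 to 32.1), a fold of 10.4 and a −log10 q of 16.1 in the untreated list. The intervals overlapped, and the ratio of R848 to untreated tags was 1.62, against the median of 1.83 over shared promoter peaks. By fold this peak exceeded 97.5% of R848 peaks and 99.4% of untreated peaks. An end of another protein-coding gene, 1700056E22Rik, lay 296 bp from its R848 summit, so this site could belong to either gene.

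The R848-only peak of Dusp10 (chr1:184084994-184085272) was the strongest R848-only phosphatase peak away from a start. It lay 9488 bp past the gene, with 14 tags (7.65 to 23.5), a fold of 6.36 and a −log10 q of 7.12, and the nearest untreated peak was 35412 bp away. Of the 2703 R848 peaks away from promoter windows with 14 or more tags, a bound taken from this peak, 28.3% had no untreated overlap. The range also holds all stronger peaks, so the share is not that of peaks of the same strength. The untreated-only peaks of Dusp10 lay 45160 and 82257 bp past the gene, with 5 tags each, and a weak peak 79217 bp past the gene was shared, with 5 tags in the R848 list and 6 tags in the untreated list.

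Dusp16, a phosphatase for JNK and p38, had 4 R848 peaks and 2 untreated peaks, and none overlapped. Over the genome, 69.0% of R848 peaks and 84.7% of untreated peaks had no overlap either. The R848 peak over its start (chr6:134792512-134792914) held 9 tags (4.12 to 17.1) with a fold of 3.68 and a −log10 q of 1.86. Longer transcript models extend the gene upstream, so this summit lay 14497 bp inside the gene span. The R848 peak 4018 bp before the start held 9 tags, and the untreated peak 4359 bp before the start held 6 tags. They lay 22 bp apart and count as separate only by the rule of 1 bp overlap.

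Dusp16 also held the strongest untreated-only peak of the 8 genes. It lay inside the gene at chr6:134729925-134730205, 62608 bp after the start, with 16 tags (9.15 to 26.0), a fold of 8.42 and a −log10 q of 10.7. By fold it exceeded 98.7% of the untreated peaks. The nearest R848 peak lay 9917 bp away, with 6 tags. Of the 1951 untreated peaks with 16 or more tags, a bound taken from this peak, 27.8% had no R848 overlap. Stronger peaks are part of that range too, so the share is not that of peaks of the same strength.

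**Figure D2:**
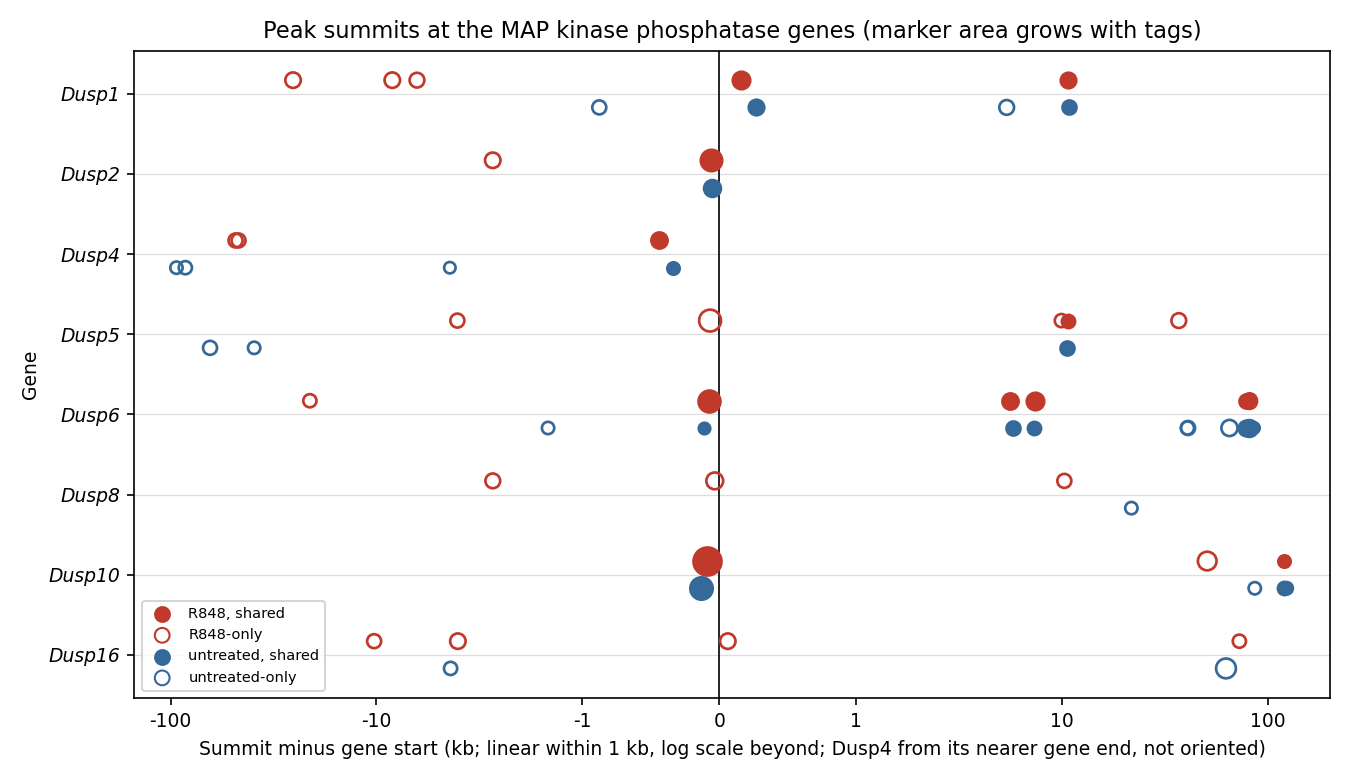
Distance of each peak summit from the gene start (horizontal axis, kb, linear within 1 kb and logarithmic beyond), by gene, with R848 peaks (red) above untreated peaks (blue); filled markers are shared peaks, open markers are found in 1 list, and marker area grows with tags. Open red markers at the start belong to Dusp5, Dusp8 and Dusp16, and the large open blue marker at Dusp16 is the 16-tag peak inside that gene. Dusp4 is drawn by distance outside its nearer gene end and is not oriented.

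Counted together, the 8 genes had 20 R848-only, 17 untreated-only and 12 shared peaks in each list. Of the R848 peaks, 37.5% (95% Wilson interval 22.9 to 54.7) overlapped an untreated peak, against 31.0% of all R848 peaks, and 69.0% of all R848 peaks had no untreated overlap. Of the untreated peaks, 41.4% (25.5 to 59.3) overlapped an R848 peak, against 15.3% of all untreated peaks, and 84.7% of all untreated peaks had no R848 overlap. The shares over all peaks include peaks farther than 100 kb from a gene end, which no gene could hold. Within 100 kb, 19371 of 28951 R848 peaks and 38172 of 47840 untreated peaks lay in 1 list alone. Peaks of the same gene are not independent, and the intervals cover counting error only.

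All 8 genes had a peak in each list, against 63.1% of all protein-coding genes for the R848 list and 69.5% for the untreated list. A shared peak was assigned to 6 of the 8, against 34.4% of all protein-coding genes and 43.0% of genes with any assigned peak. All 8 genes had an R848-only peak, against 47.2% of all protein-coding genes and 58.9% of the 17541 genes with any assigned peak. An untreated-only peak was assigned to 7 of the 8, against 56.9% of all protein-coding genes and 71.0% of genes with any assigned peak. The phosphatase genes had 2.50 R848-only peaks per gene (median 2.5), against 0.885 (median 0) over all protein-coding genes, and 2.12 untreated-only peaks per gene (median 2), against 1.74 (median 1). Over genes with any assigned peak, the means were 1.1 R848-only and 2.18 untreated-only peaks per gene. Against that base the phosphatase genes had slightly fewer untreated-only peaks. By the rule of the nearest gene end within 100 kb, a gene far from its neighbours can collect more peaks. The counts per gene were not adjusted for this. Under a stricter −log10 q bound of 5 in both lists, the 8 genes kept 6 R848 peaks and 2 untreated peaks. Of these, 5 R848 peaks at 4 genes and 1 untreated peak lay in 1 list alone. Over the genome, 65.0% of all R848 peaks and 53.4% of all untreated peaks past that bound lay in 1 list alone. Of the 5 R848 peaks, only those of Dusp5 and Dusp10 had no untreated overlap without the bound. The others, at Dusp2 and Dusp6, overlapped an untreated peak that fell below it.

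**Figure D3:**
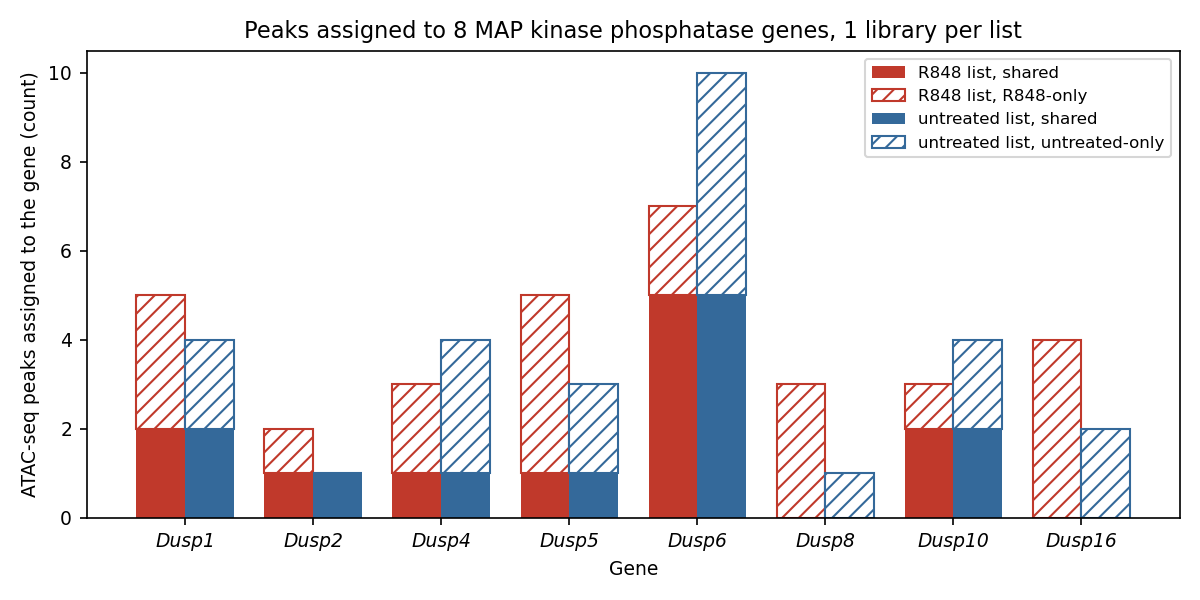
Number of peaks assigned to each gene (vertical axis) in the R848 list (red, left bar) and the untreated list (blue, right bar), split into shared (filled) and found in that list alone (hatched). Dusp8 and Dusp16 have no shared peak, and Dusp6 has 5 shared peaks in each list. Over the genome, 69.0% of R848 peaks and 84.7% of untreated peaks are not shared.

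The single-list peaks of the phosphatase genes were mostly weak. R848-only peaks had a median of 8 tags (6 to 20) and untreated-only peaks a median of 6 tags (4 to 16), against 7 tags for each kind over the genome. Of the R848-only peaks, 10 of 20 had a q below 0.05, against 40.9% of all R848-only peaks, and 2 of 20, at Dusp5 and Dusp10, had a −log10 q of at least 5, against 5.19%. Of the untreated-only peaks, 9 of 17 had a q below 0.05, against 59.6% of all untreated-only peaks, and 1 of 17, at Dusp16, had a −log10 q of at least 5, against 2.68%. Summits beyond 20 kb from a gene end made up 6 of 20 R848-only and 10 of 17 untreated-only peaks, against 37.7% of all assigned R848-only peaks and 52.9% of all assigned untreated-only peaks.

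Other genes of the MAP kinase pathway were counted in 7 lists by the same rule, and up to 3 genes leading by number of R848-only peaks are named for each. Kinases downstream of the MAP kinases had an R848-only peak at 8 of 10 genes and an untreated-only peak at 5 of 10, against 47.2% and 56.9% of all protein-coding genes for these kinds of peak. Mapkapk2, the p38-activated kinase that stabilises cytokine mRNAs, had 6 R848-only peaks and 1 untreated-only peak, the strongest with a fold of 6.78. Mknk1, a kinase of the translation factor eIF4E, had 4 R848-only peaks and no untreated-only peak. Rps6ka2, an ERK-activated kinase gene, had 4 R848-only and 3 untreated-only peaks.

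Upstream, MAP2 kinases had an R848-only peak at 6 of 7 genes and an untreated-only peak at 4 of 7. MAP3 kinases had an R848-only peak at 8 of 14 genes and an untreated-only peak at 12 of 14, while the MAP kinases themselves had an R848-only peak at 6 of 10 and an untreated-only peak at 5 of 10. Over all protein-coding genes the shares were 47.2% for R848-only and 56.9% for untreated-only peaks. Map2k6, a p38 activator, had 3 R848-only peaks beside 3 untreated-only ones. Its strongest R848-only peak had a fold of 8.27 with 20 tags, 28247 bp from a gene end. Map2k4, which encodes an activator of JNK and p38, had 3 R848-only and 4 untreated-only peaks. Map2k3, which encodes a p38 activator, had 3 R848-only and 2 untreated-only peaks. Map3k20 had 5 R848-only and 4 untreated-only peaks. Map3k7, which encodes the TAK1 kinase of Toll-like receptor signalling, had 3 R848-only and 6 untreated-only peaks. Map3k8, the kinase that couples these receptors to ERK, had 2 R848-only peaks and 1 untreated-only peak. The p38 gene Mapk14 had 1 of each kind, and Mapk3, which encodes an ERK kinase, had 1 R848-only peak and no untreated-only peak.

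Among other brakes on ERK, 5 of 7 Sprouty and Spred genes had an R848-only peak and 5 of 7 an untreated-only peak. For this and the following lists, the shares over all protein-coding genes were 47.2% for R848-only and 56.9% for untreated-only peaks. Spry2 had 4 R848-only and 7 untreated-only peaks, Spred2 had 3 R848-only peaks beside 2 untreated-only ones, and Spry4 had 2 R848-only peaks and 1 untreated-only peak. Of 13 other dual-specificity phosphatase genes, 8 had an R848-only peak and 5 an untreated-only peak, led by Dusp22 with 4 R848-only and 3 untreated-only peaks. Dusp7, which encodes a cytoplasmic ERK phosphatase, had 4 R848-only peaks beside 2 untreated-only ones, and Dusp12 had 2 R848-only peaks alone. No peak in either list was assigned to Dusp9 or Dusp14. Over promoter windows, 5 of 9 of these phosphatase genes had an R848 peak and 2 of 9 an untreated peak. The shares over all genes in the promoter table were 37.1% and 27.2%. Transcription factor targets of MAP kinases had an R848-only peak at 12 of 16 genes and an untreated-only peak at 9 of 16, led by the stress-induced repressor gene Atf3 with 5 R848-only and 2 untreated-only peaks. Mef2a, a MADS-box factor gene, had 3 R848-only peaks beside 7 untreated-only ones, and the AP-1 subunit gene Fos had 3 R848-only peaks and 1 untreated-only peak. These counts describe 1 pair of libraries, and no difference between the lists of genes was tested.

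**Figure D4:**
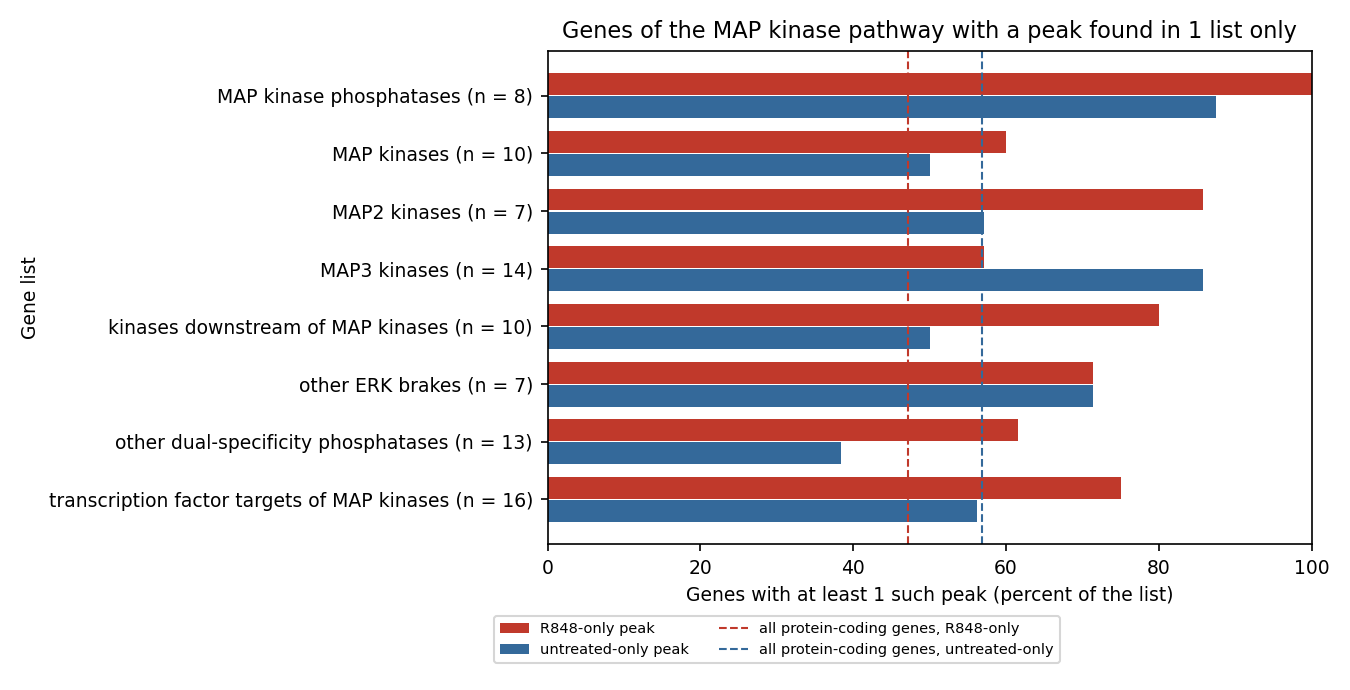
Share of genes with at least 1 R848-only peak (red, upper bar) or untreated-only peak (blue, lower bar) in the phosphatase genes and 7 other lists of the MAP kinase pathway (horizontal axis, percent of genes in the list); dashed lines mark all protein-coding genes, at 47.2% and 56.9%. All 8 phosphatase genes had an R848-only peak, and 7 had an untreated-only peak.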

How the data were processed

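ATAC-seq, in which a transposase tags open DNA, had been done on 1 R848 and 1 untreated library. Per the submitters' processing notes, reads were handled with bcl2fastq 2.19, Bowtie2 2.2.6 and MACS2 2.2.7.1 on mm10. Their settings, read filters, duplicate handling and insertion-site shift are not given in the sources used here, and read totals are unknown. The deposited fold is each summit's enrichment over its own library's background, and the deposited −log10 p and −log10 q belong to the same summit. The deposited score repeats the −log10 p and was not used.

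Summits were assigned to the nearest end of 21887 protein-coding genes of the RefSeq table (GRCm38.p6), within 100 kb. Peaks overlapping by at least 1 bp were shared. Tags were solved from fold and p, within a tolerance of 0.1%, for 99.9% of peaks in each list. Their exact Poisson intervals and the Wilson intervals (95%) cover counting error only. Overlap, assignment, tag recovery and motif search were checked on simulated data. The work was done in Python 3.11.15 with pandas 2.3.3, numpy 2.4.6, matplotlib 3.10.9 and scipy 1.17.1.

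The phosphatase genes and the pathway lists were chosen with earlier results of these data known. Named genes were the 8 phosphatases and, per pathway list, the 3 with the most R848-only peaks (ties by strongest fold). An item that this rule selects is not reported here. Motifs were searched in RefSeq promoter windows, with no peak sequences used here. Alternatives covered the q threshold, list length, overlap and assignment rules. The promoter-window counts, the tag bounds taken from single peaks and Dusp9 and Dusp14 were chosen after the values were seen.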

Additional observations from a re-analysis of the deposited data

How the results depend on the processing

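At a −log10 q of at least 5 there were 5 R848-only peaks, 1 untreated-only peak, 4 genes with an R848-only peak, 16.7% of R848 peaks shared and 4 genes with an R848 promoter peak; 65.0% of all R848 and 53.4% of all untreated peaks past that bound lay in 1 list. The 3 genes with an R848 and no untreated promoter peak were then Dusp2, Dusp5 and Dusp6, since the weaker untreated peaks and the Dusp8 and Dusp16 peaks dropped out. Untreated-only peaks numbered 7 with lists of equal length and 7 with gene ends within 20 kb. With lists of equal length 4 genes had an R848 and no untreated promoter peak, Dusp6 joining the 3. The share over all genes was not computed for promoter counts at the stricter q or with lists of equal length. Nor was a share over all peaks computed for the untreated-only counts of 7. These counts are therefore not a result about the phosphatase genes. Of the 34 alternative values for the joint counts, 27 stayed within 1.5 times the main value or, for the share, inside its Wilson interval. Of the 56 alternative R848-only counts of single genes, 42 did. Those of Dusp1, Dusp4, Dusp6, Dusp8 and Dusp16 reached 0 under at least 1 alternative, while those of Dusp2, Dusp5 and Dusp10 were at least 1 under each, though not always from the same peak. The Dusp2 count at the stricter q was its start peak, whose untreated partner dropped out. The promoter-window alternatives and the scaling of tags were chosen after seeing the data. No paired analysis was possible because each group held 1 library. A median of 7 to 8 tags per peak limits single-peak statements.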
